A study of Mus musculus with 2 samples.

Results

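The genes described here code for enzymes and 1 transporter by which myeloid cells use arginine, make polyamines and break down tryptophan. They were taken as a list of 10 genes, of 20653 genes named on the array, by the transcript that each non-control probe targets. No rule on their values was used, but the list was drawn up with earlier results of these data known. The 14 probes of these genes were found among 27223 named probes. Slc7a2 imports arginine, Nos2 makes nitric oxide from it, and Ass1 and Asl turn the citrulline left over back into arginine. Arg1 and Arg2 are the arginases, Odc1, Srm and Sat1 act in polyamine synthesis and turnover, and Ido1 starts tryptophan breakdown.

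Arginine is a substrate that several enzymes share. Nitric oxide synthase converts it to nitric oxide and citrulline, while the arginases split it into urea and ornithine, from which ornithine decarboxylase starts polyamine synthesis. Myeloid-derived suppressor cells (MDSCs) are immature myeloid cells that expand in tumour-bearing hosts, and depletion of arginine, release of nitric oxide and breakdown of tryptophan are known ways by which they restrain T cells.

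The cells came from 4T1 tumours, a mammary carcinoma line, in female BABL/c mice of 6 to 8 weeks. Every mouse was starved for 1 day, received 1000000 4T1 cells under the skin of the left armpit and was then kept for 16 days on its diet. The NSD group ate chow with 0.4% NaCl and drank tap water, and the HSD group ate chow with 4% NaCl and drank water with 1% NaCl. Monocytic MDSCs (M-MDSCs) were taken from the tumours with a magnetic bead kit, equal numbers of cells were mixed within each diet, and their RNA was labelled with Cy3 and hybridised to 1 Agilent array per diet. The comparison addresses which genes of these pathways differ in tumour M-MDSCs when the mice eat more salt. Because each diet has 1 array of pooled animals, diet, pool and array cannot be told apart, no difference has a replicate check, and no test was run.

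Signals are given in intensity units as the scanner software wrote them for each array, corrected for background. Fold changes were taken after each array had been scaled on its 75th percentile, which was 252.2 for NSD and 232.9 for HSD, so a fold change is slightly larger upwards than the plain ratio of the signals. A gene was counted as higher or lower when its brightest probe differed at least 1.5-fold and stood well above background for 1 diet or both. The errors after ± are those that the extraction software gives for the signals, which are at least 10% of the signal, and they hold nothing of the spread between mice. A probe's brightness also depends on its sequence, so signals of different probes do not rank genes by their RNA level. The summed marker signals given below add unscaled signals of different probes, so bright probes weigh most in them.

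Of the 10 genes, 8 were well above background on both arrays, Slc7a2 was so only on the NSD array, and Arg1 on neither. Of the 9 genes that could be compared, Nos2 and Arg2 were at least 1.5-fold higher in HSD, Ass1, Odc1 and Ido1 were at least 1.5-fold lower, and 4 were under that size. Over all 16312 genes that could be compared, 20.2% were past 1.5-fold, 9.86% higher and 10.3% lower. With cyclic loess in place of the percentile scaling, 7.71% were higher and 12.2% lower. The median log2 difference of the 9 genes was -0.32, beside 0.05 over all genes, and it was 0.020 when 50 units were added to the processed signals, which left 8 genes. Because the 9 genes were chosen with results of these arrays known and no test was possible, these counts are a description.

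**Figure D1:**
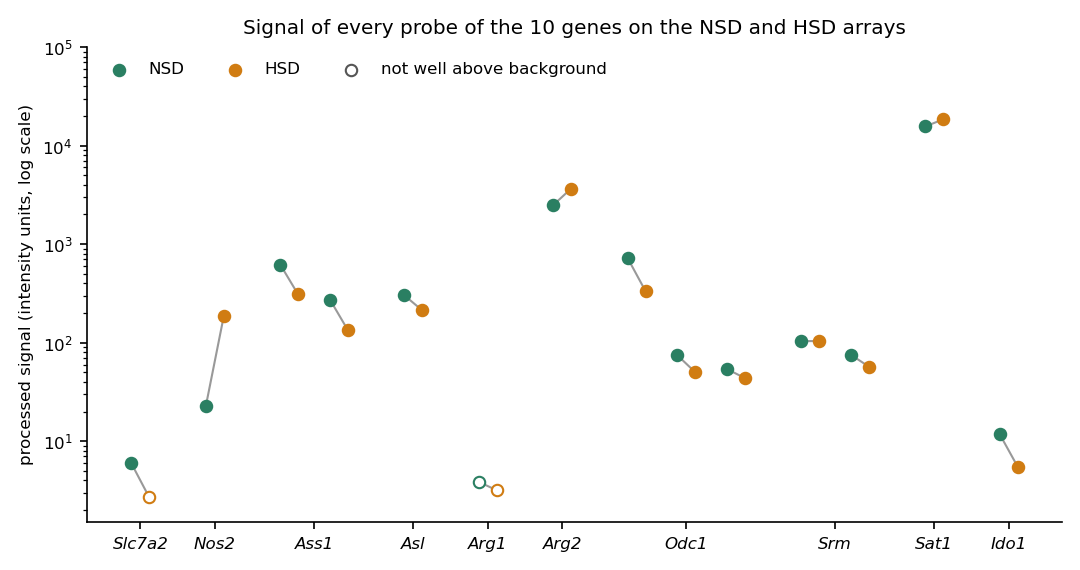
Processed signal (intensity units, log scale) of each of the 14 probes of the 10 genes on the NSD array (green) and the HSD array (orange), with open circles for signals not well above background. Nos2 rises from 22.8 to 185, both Ass1 probes lie lower in HSD, and both Arg1 signals lie below 5 units.

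Nos2, the inducible nitric oxide synthase, was the member that differed most. Its probe (A_55_P2158741) had a signal of 22.8 ± 2.58 in NSD and 185 ± 18.5 in HSD. The HSD signal was 8.78-fold higher (log2 3.13 ± 0.22), and the difference stood at rank 27 from the highest among the 16312 genes. Spots of probes printed several times per array, at like signal, differed with an SD of 0.16 for such a log2 difference, so the difference was far larger than the spread between spots. In NSD the spot was dim, with a median brightness of 35.5 units over a local background of 19, while in HSD it had 170 over 22. The size moved with the processing of low signals. Adding 50 units to both processed signals, with no other change, gave 1.78 on the log2 scale, the normexp correction without an offset gave 2.91, and normexp with an offset of 50 gave 1.60. In RNA of mixed cells, fewer cells of a type and less RNA per cell cannot be told apart, and the same holds for every gene below.

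Neither enzyme that remakes arginine from citrulline was higher in HSD. Ass1, argininosuccinate synthase, was lower in HSD by both of its probes. The brighter probe (A_55_P2004781) fell from 620 to 308 units, 1.86-fold lower (log2 -0.89 ± 0.20), and the other (A_55_P2143070) fell from 274 to 135 units, 1.88-fold lower (log2 -0.91). The probes thus gave nearly the same difference, where the median SD between probes of a gene was 0.17 over 3683 genes. Asl, argininosuccinate lyase, the next enzyme of that route, had 302 units in NSD and 213 in HSD, 1.31-fold lower and under the size counted (log2 -0.39 ± 0.20).

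Slc7a2, a cationic amino acid transporter that brings arginine into the cell, was close to the limit of the array. Its signal was 5.95 in NSD, well above background, and 2.69 in HSD, which was not. The HSD signal was therefore at least 1.25-fold lower (log2 -0.32), reckoned against the dimmest probe that the HSD array still measured. The difference of the signals as read was -1.03 ± 0.61, with an SD between spots of 0.33. With the normexp correction without an offset the bound was -1.45, past 1.5-fold. The bound of -0.32 was smaller than the error of 0.61. The Slc7a2 signals are thus too low to set a difference in uptake beside the higher Nos2 signal in HSD.

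The arginases stood far apart in how well they were measured. Arg1, the cytosolic arginase, is often used to mark suppressive myeloid cells. Its single probe (A_51_P303160) gave 3.87 units in NSD and 3.18 in HSD, close to background on both arrays, and its spots had a median brightness of 22 and 21 units over local backgrounds of 18.5 and 16. No fold change is given for Arg1, and with 1 probe the signal does not show whether the transcript was absent or the probe weak. Arg2, the mitochondrial arginase, had 2487 units in NSD and 3659 in HSD (probe A_52_P374897), 1.59-fold higher (log2 0.67 ± 0.20). This was just past the size counted, and it was under it with quantile normalization (0.55) and with cyclic loess (0.58).

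**Figure D2:**
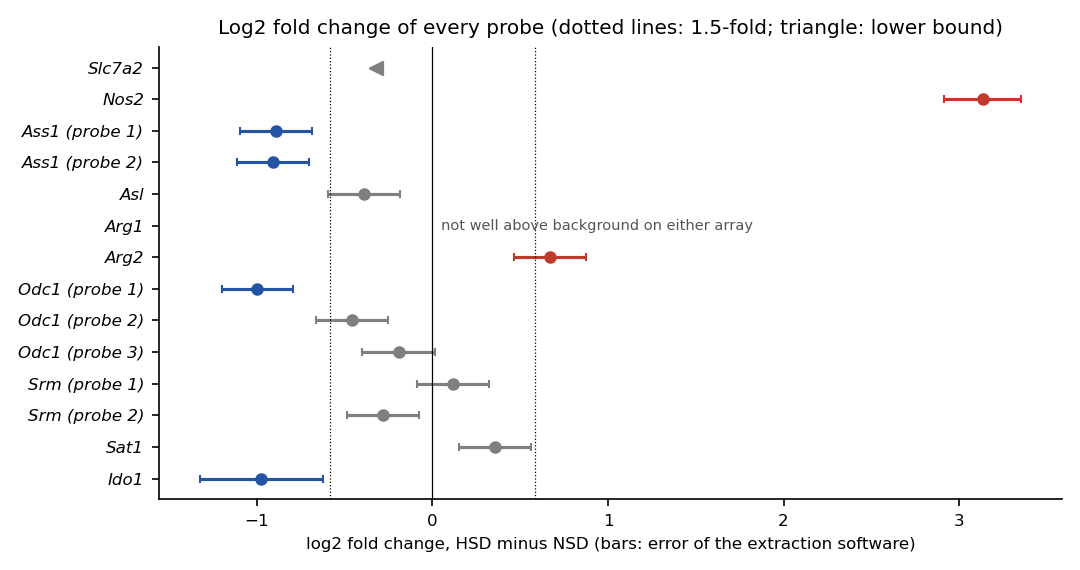
Log2 fold change, HSD minus NSD, of each probe, with bars for the error of the extraction software and dotted lines at 1.5-fold in either direction. The triangle for Slc7a2 is the nearest value that its dim HSD signal allows, Arg1 has no value, and the 3 probes of Odc1 spread from -0.997 to -0.19.

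In the polyamine route, 1 of 3 genes passed the size counted. Odc1, ornithine decarboxylase, is the enzyme that commits ornithine to polyamines. Its brightest probe (A_55_P1995173) had 721 units in NSD and 334 in HSD, 2.00-fold lower (log2 -0.997 ± 0.20). Its other probes had 74.6 and 50.2 units (log2 -0.46) and 54.1 and 43.7 units (log2 -0.19). All 3 probes were thus lower in HSD, but by unequal amounts, and by the median of its probes Odc1 was not past 1.5-fold (log2 -0.46). Srm, spermidine synthase, had 104 units on both arrays by its brighter probe (log2 0.12) and 75.2 and 57.2 units by the other (log2 -0.28). These differences point in opposite directions and both lie under 1.5-fold. Sat1, the acetyltransferase that starts polyamine breakdown and export, had 15623 units in NSD and 18477 in HSD (probe A_55_P1989321). Its difference, 1.28-fold higher (log2 0.36 ± 0.20), was under the size counted.

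The promoters of Ass1 and Odc1 are printed because both genes fell, and of the 10 genes they and Sat1 were found in the RefSeq promoter table, assembly GRCm38.p6. Each window runs from 250 bases before the start of the gene to 50 bases after it, read 5′ to 3′ on the gene's strand. Capitals mark matches to the motifs searched on both strands. The Ass1 window is chr2:31470020-31470319 on the plus strand and the Odc1 window is chr12:17544623-17544922 on the plus strand.
Ass1: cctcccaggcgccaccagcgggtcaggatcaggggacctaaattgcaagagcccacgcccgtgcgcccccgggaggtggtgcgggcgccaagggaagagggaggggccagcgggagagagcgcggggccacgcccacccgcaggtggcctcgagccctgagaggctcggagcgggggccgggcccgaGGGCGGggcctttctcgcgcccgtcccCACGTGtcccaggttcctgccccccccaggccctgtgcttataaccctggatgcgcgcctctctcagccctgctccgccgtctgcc
Odc1: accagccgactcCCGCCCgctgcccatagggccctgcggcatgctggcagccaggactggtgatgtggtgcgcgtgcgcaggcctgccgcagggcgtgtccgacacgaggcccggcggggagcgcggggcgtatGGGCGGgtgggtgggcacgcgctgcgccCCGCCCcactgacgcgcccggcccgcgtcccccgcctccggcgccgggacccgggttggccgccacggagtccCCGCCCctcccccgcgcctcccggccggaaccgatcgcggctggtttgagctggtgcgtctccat

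Both windows were rich in C and G, with a GC content of 74% for Ass1 and 78% for Odc1, beside a median of 52.7% over 32851 windows. They held 27 and 42 CpG dinucleotides, beside a median of 7. The motifs searched were NF-kB-like GGANNNTCC, IRF-like GAAANNGAA, the STAT motif TTCNNNGAA, C/EBP-like TTGCNNAA, the E-box CACGTG, the hypoxia core ACGTG, the NFAT5 core TGGAAA, the amino acid response-like TGATGNAA and the GC box GGGCGG, the last added after the windows had been seen. Ass1 had 1 E-box, starting 36 bases before the start, which also holds the hypoxia core, and 1 GC box at 63 bases before it. Odc1 had GC boxes at 238, 116, 88 and 15 bases before its start and no match to the other motifs. Of all windows, 7.15% held the E-box, 19.6% the hypoxia core and 35.7% a GC box. The GC box was thus the motif present in both windows and the most frequent of those searched. The Sat1 window, not printed here, held GC boxes at 72 and 6 bases before the start. A match is a run of letters and says nothing of whether a factor binds there.

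Ido1, the dioxygenase that opens the tryptophan ring and starts the kynurenine route, was near the lower end of the measured range. Its signal (probe A_55_P2141152) was 11.7 ± 1.53 in NSD and 5.51 ± 1.13 in HSD, well above background on both arrays. The HSD signal was 1.96-fold lower (log2 -0.97 ± 0.35). The SD between spots for such a difference was 0.33, taken from the repeated probes nearest in signal. Its HSD part, 0.21, was the same as for the dimmer Arg1 and Slc7a2 probes, so it may not hold for signals this low. The Ido1 spot had a median brightness of 31 units over a background of 18 in NSD and 23 over 17 in HSD. The log2 difference was -0.06 when 50 units were added to both processed signals, -0.55 with the normexp correction without an offset and -0.048 with normexp and an offset of 50. In each of these Ido1 was under 1.5-fold.

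**Figure D3:**
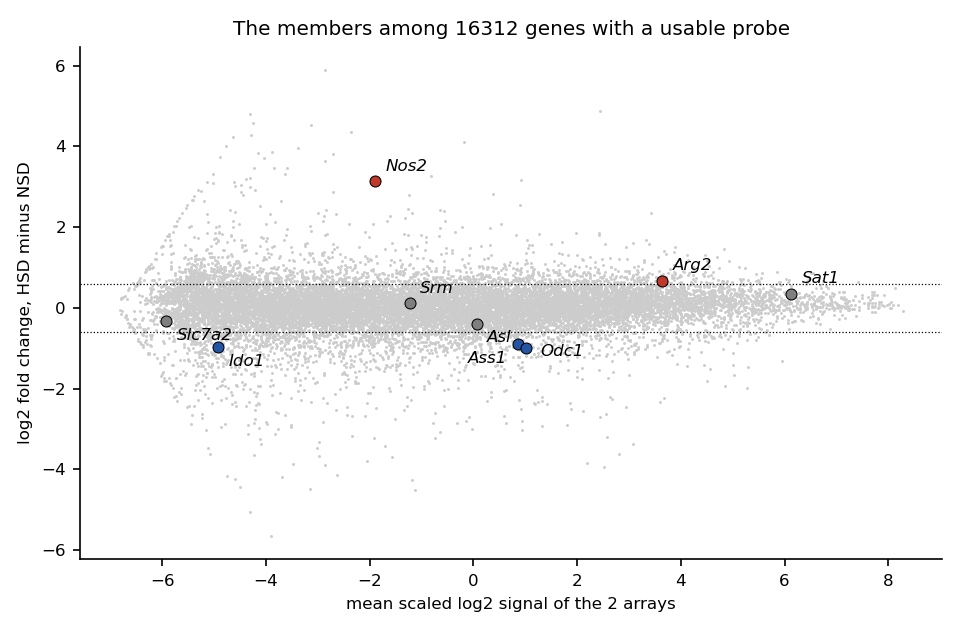
Log2 fold change, HSD minus NSD, against the mean scaled log2 signal of both arrays for 16312 genes (grey) and the 9 members that could be compared (red at least 1.5-fold higher, blue at least 1.5-fold lower, dark grey under). Nos2 (3.13, rank 27 from the highest) lies above most of the cloud, while Ass1, Odc1, Arg2 and Ido1 lie within it.

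The position of each gene among all genes gives a scale for these sizes. Counted from the lowest difference, Odc1 stood at rank 684, Ido1 at 719 and Ass1 at 854 of 16312. Arg2 stood at rank 1188 from the highest. The median absolute log2 difference over all genes was 0.28, so Srm by its brighter probe lay within it, and Sat1 and Asl lay just above it. Of the 5 genes past 1.5-fold, Nos2, Arg2 and Ido1 rest on 1 probe each. Among 544 genes whose brightest probe was past 1.5-fold and that had a second usable probe, that probe moved the same way in 466 (85.7%) and was itself past 1.5-fold in 203.

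The other genes of these pathways, a list of 62, showed no common direction. Of the 60 with a named probe, 49 could be compared. In HSD 6 were at least 1.5-fold higher, 8 were at least 1.5-fold lower, and their median log2 difference was -0.02. Over all 16312 genes that could be compared, 9.86% were higher and 10.3% lower. The same shares stand beside the counts by role and the counts of markers given below, which rest on few genes each. Amd1, which supplies the propylamine groups of polyamines, had no named probe.

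Among amino acid transporters, 1 of 7 was higher and 2 were lower. Slc7a11, the transport subunit of the cystine and glutamate exchanger, rose from 523 to 1754 units (log2 1.86). Slc7a8, a transporter of neutral amino acids, fell from 379 to 101 units (log2 -1.79), and Slc7a7, which exports cationic amino acids, fell from 2612 to 1395 units (log2 -0.79). Slc7a1, the general arginine importer, had 244 units in NSD and 154 in HSD (log2 -0.55), under the size counted. Thus neither arginine importer, Slc7a1 or Slc7a2, was higher in HSD.

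Of the genes around nitric oxide synthase, none of 7 was past 1.5-fold higher and 1 was lower. Gch1 makes the first step towards tetrahydrobiopterin, a cofactor that nitric oxide synthase needs. It had 4106 units in NSD and 3629 in HSD (log2 -0.06). Qdpr, which regenerates the same family of cofactors, fell from 280 to 166 units (log2 -0.64), and its second probe gave -0.89. Of the other synthases, Nos1 did not rise above background on either array and Nos3 had 20.2 units in NSD and 14.3 in HSD (log2 -0.38).

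Beside the arginases, Oat, which turns ornithine towards proline and glutamate, rose from 710 to 1514 units (log2 1.21). Cps1, the first enzyme of the liver's urea cycle, rose from 7.49 to 10.6 units (log2 0.61), close to background. Gatm, which uses arginine for creatine, fell from 119 to 72.8 units (log2 -0.60). Otc, the urea cycle enzyme that follows Cps1, was at background level on both arrays. Oat and Odc1 both use ornithine. Oat was higher, while Odc1 was lower by all its probes but past 1.5-fold only by the brightest. Any shift in the use of ornithine was not tested.

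Further along the polyamine route, 3 of 14 genes were higher and 2 lower. Azin1, the inhibitor of the antizymes that send Odc1 to degradation, rose from 888 to 1243 units by its brightest probe (log2 0.60), but its other probes gave 0.18 and -0.02. Oaz3, an antizyme with a low signal, rose from 10.6 to 24.6 units (log2 1.33). The brighter antizymes Oaz1 (20946 and 23266 units, log2 0.27) and Oaz2 (5880 and 7112 units, log2 0.39) were under 1.5-fold. The lysosomal polyamine exporter Atp13a2 fell from 2420 to 1385 units (log2 -0.69), whereas its relative Atp13a3 rose from 154 to 298 units (log2 1.07). Paox, the oxidase that acts after Sat1, fell from 440 to 248 units (log2 -0.71). Sms, spermine synthase, had 411 and 351 units (log2 -0.12), so neither synthase of the pair Srm and Sms was past 1.5-fold.

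In tryptophan metabolism, 0 of 12 genes were higher and 2 were lower. Wars, which charges the tryptophan transfer RNA, fell from 653 to 391 units (log2 -0.62), and its second probe gave -0.38. Ddc, the decarboxylase of aromatic amino acids, fell from 14.6 to 7.41 units (log2 -0.86), but its second probe was above background in HSD alone and gave at least 0.38 in the opposite direction. Kmo and Kynu act downstream of Ido1 in the kynurenine route. Kmo had 70.5 units in NSD and 75.2 in HSD (log2 0.21), and Kynu had 10.5 and 7.97 (log2 -0.28). Ido2 and Tdo2, which catalyse the same step as Ido1, were at background level on both arrays.

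**Figure D4:**
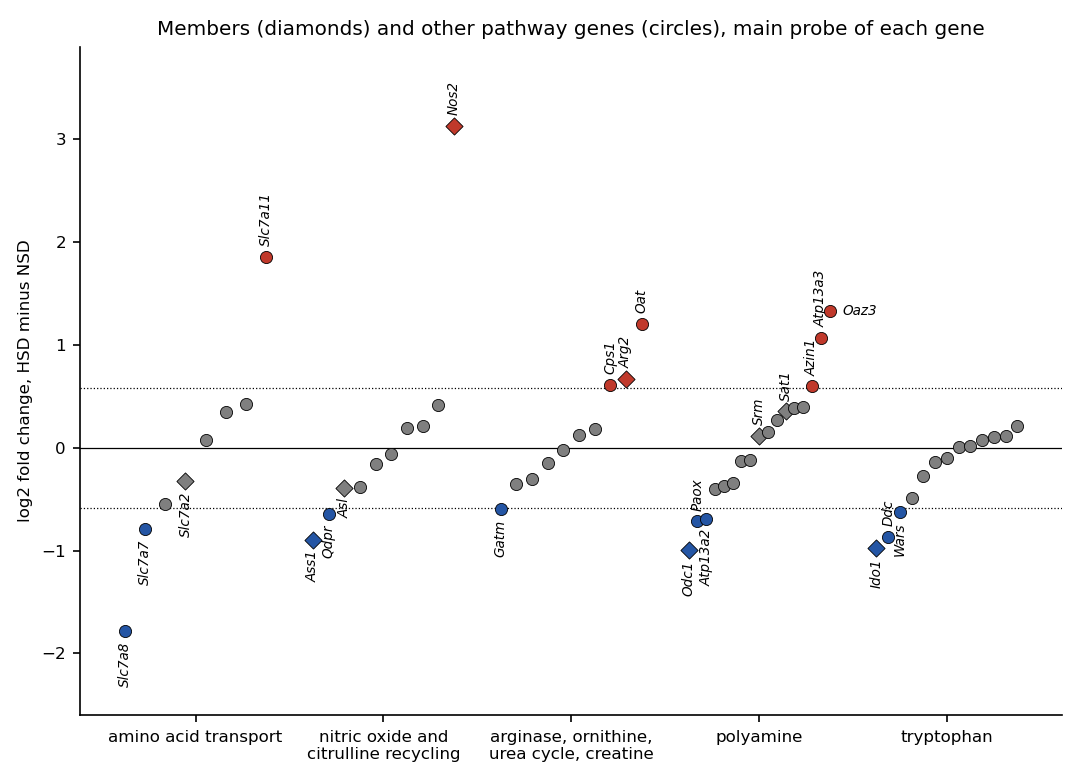
Log2 fold change, HSD minus NSD, of the brightest probe of the members (diamonds) and the other pathway genes (circles), grouped by role, with red and blue past 1.5-fold. Nos2 (3.13) and Slc7a11 (1.86) lie highest and Slc7a8 (-1.79) lowest.

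The label of the cells was checked against markers. Itgam (31564 units in NSD and 31043 in HSD) and Ly6c1 (51811 and 48478) were bright on both arrays. Itgam codes for CD11b, by which the study defined granulocytic as well as monocytic MDSCs, so it does not set them apart. A dimmer Ly6c1 probe gave log2 -0.42. By their brightest probes Csf1r (log2 -0.37) and Ptprc (0.47) were under 1.5-fold, while Ccr2 fell from 259 to 139 units (log2 -0.78). Ly6c2 and Ly6g had no named probe. Genes of neutrophil granule proteins were bright too, among them Camp with 61817 units in NSD and 59920 in HSD and Ltf with 51766 and 51993, and 1 of 7 neutrophil markers differed by 1.5-fold or more (Mpo, log2 -0.92). Of 5 usable macrophage markers, 4 were at least 1.5-fold lower in HSD and 0 higher. The summed signal of the 7 with a named probe, dim ones included, was 7273 units in NSD and 4305 in HSD, most of it from Adgre1. Mrc1 fell from 134 to 5.49 units (log2 -4.50), Fcgr1 from 305 to 21.9 (log2 -3.68) and Mertk from 95.9 to 15.4 (log2 -2.52), while Adgre1 had 6723 and 4252 units (log2 -0.55), and Cd163 and Vsig4 were at background level on both arrays. Markers of macrophages and Ccr2 thus moved the same way as Ass1, Odc1 and Ido1 and opposite to Nos2 and Arg2, and their part in these results was not tested.

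Of 7 usable dendritic cell markers, 2 were higher (Itgax, log2 0.74, and Clec9a, log2 0.80) and 1 lower, Cd209a, which had 14.3 units in NSD and was at background in HSD (log2 -1.58 or lower). The summed signal of all 8 dendritic cell markers, the dim Xcr1 included, was 14730 units in NSD and 14251 in HSD. After scaling, the log2 difference of these sums was 0.07. Siglech alone made up 13705 and 13214 units of the sums, but its second probe had 30.7 and 21.3 units (log2 -0.41). Of the 5 usable markers of the 4T1 carcinoma cells, Epcam (log2 0.70), Krt8 (0.61) and Krt18 (0.76) were higher at low signals. Krt14 was nearly level (log2 0.07), and Cdh1, the brightest of the list, fell from 45.0 to 30.8 units (log2 -0.43). Krt19 was at background level on both arrays, and the summed signal of all 6 was 111 units in NSD and 116 in HSD. Of the 4 usable fibroblast markers, 2 were lower, and the summed signal of all 6, dim ones included, was 143 units in NSD and 111 in HSD. Of 5 usable T and NK cell markers, 3 were positive and 2 negative, with a median log2 difference of 0.33. The summed signal of all 6 T and NK cell markers, the dim Ncr1 included, was 1938 units in NSD and 2285 in HSD. Cd3e was the marker past 1.5-fold (log2 -1.09), whereas Cd3d had a log2 difference of 0.43. By their brightest probes, none of the 6 B cell or 6 endothelial markers was past 1.5-fold. All 6 B cell markers were positive, with a median of 0.47, and a second probe of Cr2 gave 0.78. The endothelial marker Kdr had 0.28 by its brightest probe, but its second probe fell from 124 to 20.4 units (log2 -2.49). Of 5 usable erythroid markers, 1 was at least 1.5-fold lower (Hbb-bs, from 212 to 124 units, log2 -0.66) and 4 were under that size. Among these 4, Hba-a1 was bright, with 10273 units in NSD and 10843 in HSD (log2 0.19). The part of these cells in the results was not tested.

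**Figure D5:**
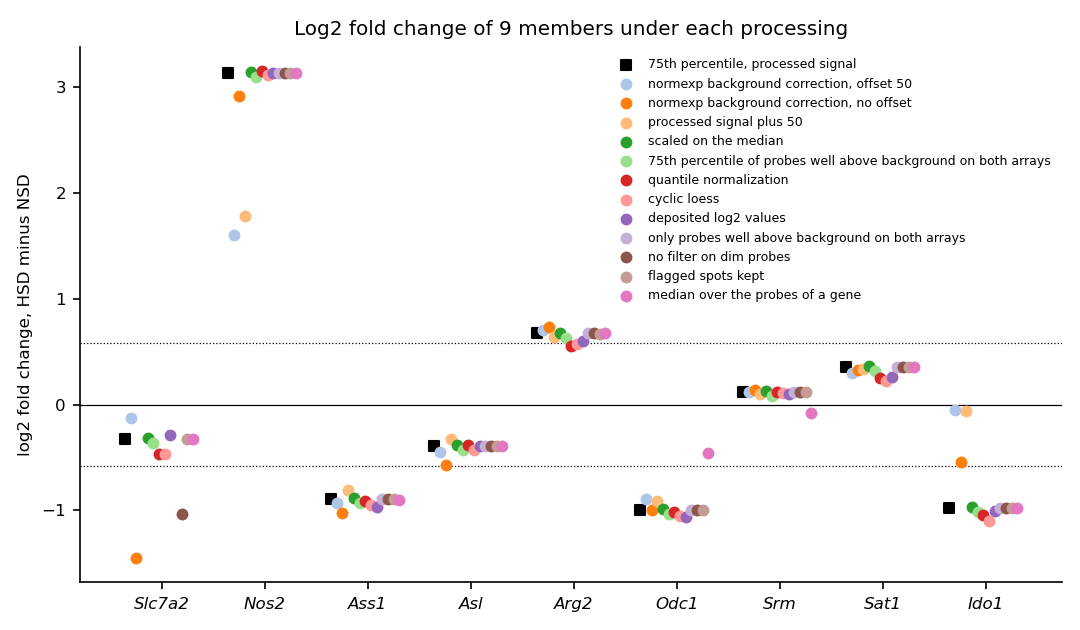
Log2 fold change, HSD minus NSD, of the 9 members that could be compared under the main processing (black squares) and the alternatives (coloured circles), with dotted lines at 1.5-fold. Nos2 moves from 3.13 to 1.60 and Ido1 from -0.97 to -0.048 with normexp and an offset of 50, while Ass1 stays between -1.02 and -0.81.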

How the data were processed

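RNA of pooled tumour M-MDSCs was measured on 1 single-colour Agilent array per diet, with both arrays on 1 slide. Scanner files that the authors deposited give each spot's processed intensity, from which Feature Extraction 11.0.1.1 had removed the background. These intensities are not normalized between arrays. The median spot and local background intensities that the authors deposited served for an alternative correction. The authors also deposited normalized log2 values, made with GeneSpring, whose columns shared a median of 4.61 and had nearly equal sorted values. Their scale was log2 and each column named its array, while the normalization method was not given in the sources used here.

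Control spots and spots flagged as outliers were left out, which removed 0 spots of the members. Processed signals were taken to log2, repeated spots were averaged by probe, and each array was centred on its 75th percentile over non-control probes. A probe is called dim on an array where the software does not mark it as well above background. For a probe dim on 1 array, the difference is a bound, for which its dim signal was raised, where smaller, to that of the dimmest probe measured there (4.61 in NSD and 4.39 in HSD). Probes dim on both arrays got no fold change. On the arrays 71.9% (NSD) and 72.4% (HSD) of 39413 probes were well above background. Transcript identifiers were matched, without versions, to RefSeq of GRCm38.p6, which named 69.1% of the probes. The array design is annotated on an older assembly, so no gene coordinates are given other than those of the promoter windows. Of several probes of a gene the brightest was used for counts.

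All 10 members are named with every probe, and of the other pathway genes those past 1.5-fold and Gch1, Kmo, Kynu, Amd1, Sms, Azin1 and Slc7a1. The few other genes named were chosen after their values were seen. The members and lists were chosen with earlier results of these data known. The number of arrays limits the precision, and no p-value is given. The step that counts genes past the size was run on simulated arrays with known changes, but no outcome of that run is given here, so it lends the counts no weight. Alternatives were normexp with an offset of 50 on the median signal (the mean signal was not used here), scaling on the median or on probes above background on both arrays, quantile normalization, cyclic loess, the deposited log2 values, other filters on dim probes, flagged spots kept, a 2-fold threshold and the median over probes. Normexp without an offset and 50 units added to the processed signal were chosen after seeing the data. Python 3.11.15, numpy 2.4.6, pandas 2.3.3, matplotlib 3.10.9, R 4.3.3 and limma 3.58.1 were used.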

Additional observations from a re-analysis of the deposited data

How the results depend on the processing

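Each diet has 1 array, so no array could be left out. No paired analysis was possible because each diet has 1 array. Of the 9 members that could be compared, none changed direction under any alternative except Srm, which had log2 values from -0.08 to 0.14. Nos2 was higher and Ass1 lower past 1.5-fold under every change of scaling and background correction, and Ass1 also by the median of its probes. Nos2 has 1 probe, so the change of probe choice could not alter its value. Both genes were well above background on both arrays, so the filters on dim probes could not alter theirs. The number of members at least 1.5-fold higher was 1 in place of 2 with quantile normalization and with cyclic loess, which left out Arg2. Normexp without an offset and the processed signal plus 50 units were added after seeing the data, to separate the offset from the correction. The median of the members was -0.048 with normexp and an offset of 50, -0.55 with normexp without an offset, 0.020 and thus reversed with the processed signal plus 50 (over 8 members), -0.43 with cyclic loess and -0.14 over probes well above background on both arrays, in place of -0.32. Of the other pathway genes 6 in place of 14 were past 1.5-fold with normexp and an offset of 50 (7.92% of all genes in place of 20.2%), and 7 with the processed signal plus 50 (8.16% of all genes). At a 2-fold threshold 1 member was past it in place of 5, with 1 higher and 0 lower in place of 3, and 5 other pathway genes were, beside 6.80% of all genes (2.62% higher and 4.17% lower). Normexp with an offset of 50 and the processed signal plus 50 each left 4 members past 1.5-fold, without Ido1, and normexp without an offset left 5, with Slc7a2 in place of Ido1. With the processed signal plus 50 Slc7a2 had no bound. The median over probes left 4, without Odc1, and no filter gave 6, adding Slc7a2. Low signals limit Slc7a2, Ido1 and the NSD value of Nos2.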
